A study of Mus musculus with 18 samples.

Results

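The 6 leptomeningeal libraries of the series, of 18 libraries in all, compare macrophages of the brain's outer membranes that carried a monocyte fate label with macrophages that did not. They were chosen by the library titles: 4 libraries of monocyte-derived and 2 of haematopoietic stem cell (HSC)-derived leptomeningeal macrophages, which are all that the series holds of both kinds. The recipients were wild type C57BL6/C mice that had been lethally irradiated and had received bone marrow of donors with 3 alleles, the Cre driver Ms4a3-Cre, its reporter R26-TdTomato and Cx3cr1-gfp, which cells of both groups therefore carried. At 32 weeks after transplantation, cells with GFP and TdTomato were sorted as monocyte-derived and cells with GFP alone as HSC-derived, with at most 100000 cells per library. Leptomeningeal cells had been rinsed off the surface of the brain after collagenase digestion, in the presence of actinomycin D, which blocks transcription. Microglia of both origins, from the digested brain of such chimaeras, had 4 libraries each and serve below as the other compartment. The remaining libraries of the series, host microglia by their titles, entered only the shared fit of the test.

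The leptomeninges, the arachnoid and pia mater, house border-associated macrophages, which scavenge proteins and debris from the cerebrospinal fluid and present antigen. Their usual markers are the mannose receptor, the haemoglobin scavenger receptor CD163, the folate receptor FOLR2 and the endothelial hyaluronan receptor LYVE1. After irradiation, donor marrow replaces part of these cells. Ms4a3 is expressed in granulocyte-monocyte progenitors, so that Ms4a3-Cre labels their progeny, neutrophils included, whereas Cx3cr1-gfp is bright in monocytes and macrophages. A donor cell with GFP alone carried no recombined reporter. Transcripts of Gfp, tdTomato and Ms4a3 are not among those analysed here, so the sort was not checked on them. Levels of border macrophage markers could be checked. Levels are given as CPM, unique molecule counts scaled to library size by the TMM method. Mrc1, Pf4, Lyve1, Cbr2 and Ms4a7 were present in all 6 libraries, the lowest of them being Lyve1 with 200.3 CPM in HSC-derived replicate 2. Sall1, a transcription factor gene of resident microglia, had at most 9.13 CPM. Monocyte-derived and HSC-derived microglia had means of 597 and 606 CPM for Mrc1, 407 and 621 for Pf4, and 780 and 885 for Ms4a7. For Lyve1 the means there were 5.07 and 6.42. Presence of Mrc1, Pf4 or Ms4a7 therefore does not tell the compartments apart.

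Depth differed between the groups. The monocyte-derived libraries held 1066281 to 1809700 counts, HSC-derived replicate 1 held 648266 and HSC-derived replicate 2 held 154727. A count of 3 therefore stood for 1.91 to 3.29 CPM in monocyte-derived libraries, for 5.15 in HSC-derived replicate 1 and for 23.1 in HSC-derived replicate 2. The shallow library also had the highest share of ribosomal protein transcripts, 19.1% against 13.7% to 15.2% in the other 5, and of mitochondrial transcripts, 3.07% against 1.02% to 1.95%. Log2 levels of the 4 monocyte-derived libraries correlated pairwise at 0.941 to 0.969 (Pearson), across genes, which are not independent replicates, and those of both HSC-derived libraries at 0.741. HSC-derived replicate 1 correlated at 0.919 to 0.930 with the monocyte-derived libraries, more than with its own replicate. The labels do not say that replicates were separate mice, so p-values measure the spread between these samples, and intervals cover counting error only.

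The comparison asked how donor-derived leptomeningeal macrophages with the monocyte fate label differed from those without it. Of 10597 genes tested, 32 passed the edgeR quasi-likelihood test (Benjamini-Hochberg adjusted p under 0.05), which is 0.302% of genes. Of these, 17 were higher (0.16%) and 15 lower (0.142%) in monocyte-derived cells. The higher genes were led by neutrophil granule and monocyte genes, Camp, Ngp, Ltf, S100a8, Ace, Hp and Ly6c2. The lower genes held the border macrophage genes Cd163, Folr2 and Cd209g, the stromal genes Mgp and Igfbp5, and the cytokine gene Tslp. The median log2 difference was 0.06 with genes of no counts in a group set at their bound, leaving out 121 tested genes for which no bound could be given, and 0.07 over the fitted values of all tested genes.

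**Figure D1:**
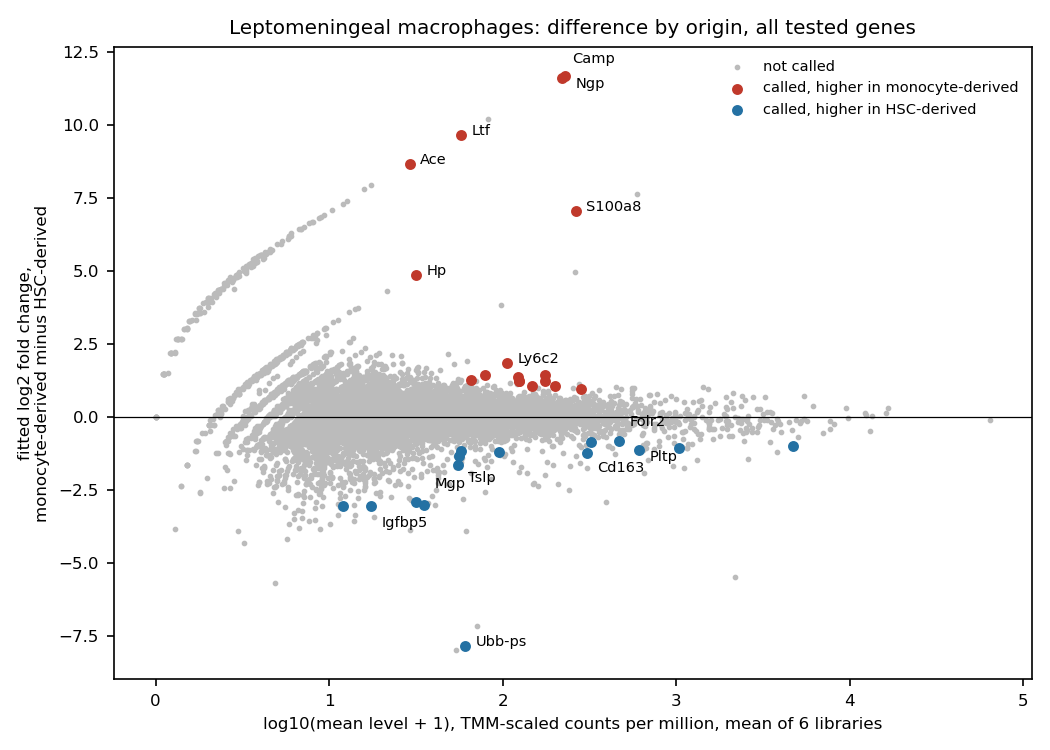
Fitted log2 difference (vertical axis, monocyte-derived minus HSC-derived) against log10(mean level + 1) in CPM over the 6 leptomeningeal libraries (horizontal axis) for all 10597 tested genes, with the 17 genes called higher in red and the 15 called lower in blue. Most genes lie close to 0. The upper band of points at low levels holds genes without a count in HSC-derived libraries, whose fitted values depend on the prior count and are no measure of size.

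Neutrophil granule transcripts were read in monocyte-derived libraries and were at or near 0 in HSC-derived ones. Camp encodes cathelicidin, an antimicrobial peptide of secondary granules. It had 202, 406, 277 and 427 CPM in monocyte-derived replicates 1 to 4 and 0 in both HSC-derived libraries (1725 counts against 0). Ngp, which encodes neutrophilic granule protein, had 138, 379, 388 and 470.5 CPM against 0 and 0 (1849 counts against 0). Both were read in every monocyte-derived library and in neither HSC-derived one, and the floor of 3 counts over the HSC-derived group corresponds to 4.21 CPM. Against that floor Camp was at least 76.0-fold higher (adjusted p = 0.0135) and Ngp at least 81.4-fold higher (adjusted p = 0.0223, edgeR). Ltf encodes lactoferrin, the iron-binding protein of secondary granules. It had 35.8, 94.4, 84.2 and 126 CPM against 0 and 0, at least 20.1-fold higher (adjusted p = 0.0231, edgeR). Replicate 1 was the lowest monocyte-derived library for all 3 genes. In a bulk sample, fewer cells of a type and less RNA per cell cannot be told apart.

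These 3 genes lie in order on chromosome 9 of the mm10 build, by GENCODE: Camp at chr9:109847379-109849617 on the minus strand, Ngp at chr9:110419747-110423012 and Ltf at chr9:111019271-111042767, both on the plus strand. The gap from Camp to Ngp is 570 kb and that from Ngp to Ltf 596 kb. The part that GENCODE already places inside a gene is left out of the sequences below. The sequence before the start site of each of these 3 genes is shown, from the RefSeq promoter table (GRCm38.p6, the assembly of mm10). It runs from 5′ to 3′ on the gene's strand, over chr9:109849618-109849706 for Camp, chr9:110419558-110419746 for Ngp and chr9:111019042-111019270 for Ltf. Capitals mark matches on either strand to TTNNGCAA, letters of the kind bound by C/EBP factors, which drive granule genes in myelocytes.
Camp: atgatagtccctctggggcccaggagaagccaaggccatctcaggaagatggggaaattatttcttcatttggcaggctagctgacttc
Ngp: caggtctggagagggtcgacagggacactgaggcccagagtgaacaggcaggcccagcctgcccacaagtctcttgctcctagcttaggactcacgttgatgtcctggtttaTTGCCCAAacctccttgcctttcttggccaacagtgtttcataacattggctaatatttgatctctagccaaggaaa
Ltf: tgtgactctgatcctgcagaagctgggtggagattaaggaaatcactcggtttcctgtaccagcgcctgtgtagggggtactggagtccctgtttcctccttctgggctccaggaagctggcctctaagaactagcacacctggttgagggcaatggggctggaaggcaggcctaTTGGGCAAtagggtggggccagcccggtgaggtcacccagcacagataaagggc
Over the whole 250 bases before the RefSeq start, Ngp held 2 matches, Ltf 1 and Camp 0, and 9.56% of 32851 mouse promoters held at least 1 in a window of that length. None of the 3 held GAGGAAGT, letters bound by the myeloid factor PU.1, which 2.44% of promoters held on either strand. A match is a description of letters and says nothing of binding in these cells. Cebpe, the C/EBP factor of late granulocyte progenitors, had 33 counts in monocyte-derived libraries and 0 in HSC-derived ones, and was too low to be tested.

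Calprotectin genes followed. S100a8 encodes a subunit of this calcium-binding protein, abundant in neutrophils and present in monocytes. It had 246, 430.5, 418 and 477 CPM against 1.72 and 7.70, with 2107 counts against 2, a ratio of counts per total of 139 (95% exact interval 38.5 to 1150, adjusted p = 0.00205, edgeR). The lowest monocyte-derived library was far above both HSC-derived ones. S100a9, which encodes the partner subunit, did not pass (adjusted p = 0.0862, edgeR), although its levels were 481, 1020, 852 and 1178 against 0 and 23.1 CPM, a ratio of 207 (70.8 to 1004). Lcn2, which encodes the siderophore-binding lipocalin, had 59.0, 146, 117 and 167 CPM against 0 and 0, at least 28.5-fold higher, and did not pass either (adjusted p = 0.0698, edgeR). For both genes the groups did not overlap. Across all genes, 17.2% had every monocyte-derived library above both HSC-derived ones.

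Of 25 neutrophil genes, 8 were not in the table, 4 were too low to be tested, and 13 were tested. Of these, Camp, Ngp, Ltf and S100a8 were called higher and 0 lower, against 0.16% and 0.142% of all genes. Members without a count in HSC-derived libraries could only come out higher. Lcn2, S100a9, Retnlg and Wfdc21 had groups that did not overlap but were not called. Mmp9, Trem1, Csf3r, Il1r2 and Mcemp1, which macrophages or monocytes express too, overlapped between the groups. Mmp9 had 112, 127, 147 and 160 against 277 and 69.3 CPM. The summed level of the list was 1477, 2819, 2472 and 3216 CPM in monocyte-derived and 409 and 177 in HSC-derived libraries, and 8 of its members had no count in either HSC-derived library. In microglia of both origins the sum was between 62.6 and 195 CPM. The part of neutrophils carried into the sort was not tested. Without HSC-derived replicate 1 none of Camp, Ngp, Ltf and S100a8 was called (adjusted p = 0.0683 to 0.176, edgeR), and without replicate 2 Camp, Ngp and Ltf were not (0.0719 to 0.0745) and S100a8 was (0.0192). Ngp was also lost without monocyte-derived replicate 2 (adjusted p = 0.052) or 3 (0.0535).

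**Figure D2:**
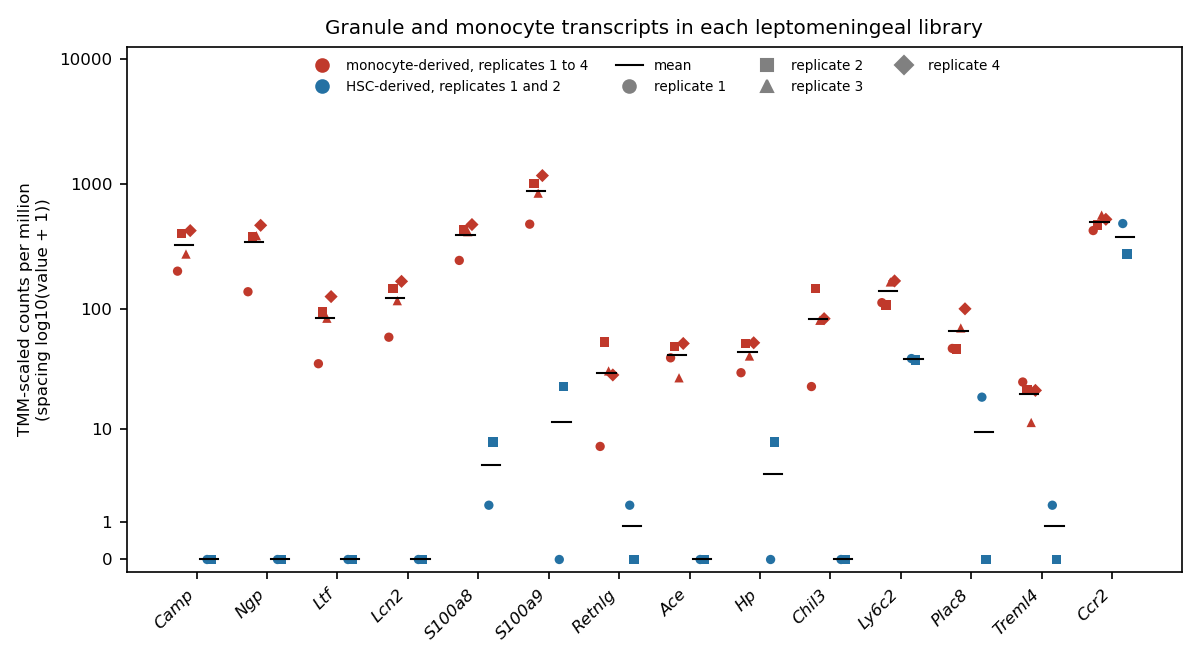
Levels in CPM (vertical axis, spaced as log10(value + 1)) of 14 granule and monocyte genes in each leptomeningeal library, with monocyte-derived libraries in red, HSC-derived libraries in blue, a marker shape per replicate and a black line at the mean. Camp, Ngp, Ltf, Lcn2, Ace and Chil3 lie at 0 in both HSC-derived libraries, whereas Ccr2 overlaps between the groups.

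Genes of blood monocytes were higher too. Ly6c2 encodes the Ly6C antigen of classical monocytes. It had 112, 108, 165 and 168 CPM against 39.5 and 38.5, with no overlap. The log2 difference was 1.83 ± 0.33 (SE, approximated from the F statistic), a 3.54-fold difference (adjusted p = 0.00539, edgeR). Ace encodes angiotensin-converting enzyme, which marks patrolling monocytes and also choroid plexus. It had 40.0, 49.4, 27.4 and 52.5 CPM against 0 and 0, at least 9.82-fold higher (adjusted p = 0.00183, edgeR). Of 7 tested choroid plexus and ependymal genes, Ace was called higher and 0 lower, against 0.16% and 0.142% of all genes. Their median log2 difference was -1.36, against 0.06 for all genes. Ttr, the defining transcript of choroid plexus epithelium, overlapped between the groups, at 9.13, 85.7, 14.7 and 190.5 against 292 and 15.4 CPM. Hp encodes the haemoglobin-binding plasma protein haptoglobin, also made by neutrophils and monocytes. It had 30.2, 52.7, 41.4 and 53.2 CPM against 0 and 7.70, a ratio of counts of 31.1 (5.52 to 1232, adjusted p = 0.0167, edgeR). All 3 genes were called in each fit that left out a monocyte-derived library or HSC-derived replicate 2, and in none without HSC-derived replicate 1 (adjusted p = 0.107 to 0.259, edgeR).

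Of 30 monocyte genes, 27 were tested, and Ly6c2, Ace and Hp were called higher and 0 lower, against 0.16% and 0.142% of all genes. At an unadjusted p under 0.05, 10 were higher and 0 lower, against 6.56% and 4.38% of all genes (10.9% in either direction). In 12 members every monocyte-derived library was higher and in 0 every one was lower, against 17.2% and 9.52% of all genes. The list's median log2 difference was 0.53. Treml4, a receptor gene of patrolling monocytes, had 25.3, 22, 11.5 and 21.5 CPM against 1.72 and 0 (adjusted p = 0.0944, edgeR). Plac8, expressed in classical monocytes, had 47.8, 47.2, 70.1 and 100 against 18.9 and 0 CPM (adjusted p = 0.0817). Chil3, a chitinase-like gene of monocytes and neutrophils, had 23.2, 147, 81.0 and 83.5 CPM against 0 and 0, at least 18.4-fold higher, and was not called (adjusted p = 0.352). Ccr2, the chemokine receptor gene of monocytes leaving the marrow, had 427, 474, 568 and 526 CPM against 486 and 277, overlapped between the groups and was not called (log2 difference 0.30, adjusted p = 0.59). The monocyte list summed to 14079 to 22471 CPM in monocyte-derived and to 14985 and 17838 in HSC-derived libraries.

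The other genes called higher were on neither of these lists. Tmem119, a surface marker of microglia, had 256, 205, 218 and 184 CPM against 91.0 and 92.4 (log2 difference 1.24 ± 0.26, adjusted p = 0.0248, edgeR). Every monocyte-derived library was above both HSC-derived ones. Microglia held far more, with means of 1058 CPM in monocyte-derived and 897 in HSC-derived cells. Of 25 homeostatic microglia genes, 1 was called higher and 0 lower, against 0.16% and 0.142% of all genes, with a median of 0.25. Unadjusted p was under 0.05 for 7 higher and 0 lower members, against 6.56% and 4.38% of all genes. Cx3cr1, the fractalkine receptor gene of which both groups carried a gfp allele, had 1008, 582, 719 and 888 against 486 and 478 CPM and was not called (log2 difference 0.73, adjusted p = 0.233). Without HSC-derived replicate 1 or 2 the call of Tmem119 was lost (adjusted p = 0.109 and 0.137). P2ry12, the purinergic receptor gene of microglia, overlapped, at 626, 265, 275 and 284 against 321 and 239 CPM. The microglia list summed to 22987 to 25548 CPM and to 22086 and 21751 CPM.

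Also higher were Nmt1, which encodes the enzyme that attaches myristate to proteins, at 224 ± 37.7 CPM (SD, n = 4) against 73.3 ± 27.5 (n = 2), and Stk10, a kinase gene of lymphoid and myeloid cells, at 99.0 ± 9.68 against 37.3 ± 1.72. Msrb1, a methionine sulfoxide reductase gene, had 151 ± 54.3 against 64.3 ± 18 CPM. Ndst1, an enzyme gene of heparan sulfate synthesis, had 80.4 ± 13.2 against 32.6 ± 2.51 CPM. Csnk1e, a casein kinase gene of the circadian clock, and Brd2, which encodes a bromodomain reader of acetylated histones, had 156 ± 14.8 and 154 ± 32.4 CPM against 60.0 ± 19.6 and 64.3 ± 3.80. Vsir, which encodes the inhibitory checkpoint receptor VISTA, had 176 ± 18.6 against 85.3 ± 0.821 CPM, and the integrin gene Itgb5, which pairs with αv, 338 ± 34.4 against 171 ± 13.2. Abi3, an actin regulator gene, had 246 ± 20.2 against 105 ± 50.6 CPM. It overlaps exons of Gngt2 on the opposite strand, and whether the counting used strand is not given in the sources used here. These 9 genes had log2 differences between 0.96 and 1.45, with no overlap between the groups. Without HSC-derived replicate 1 the log2 difference was 2.15 for Nmt1, 1.92 for Abi3 and 1.85 for Csnk1e, against 1.45, 1.05 and 1.23 with it. Leaving out HSC-derived replicate 2 ended all 9 calls (adjusted p = 0.0719 to 0.409, edgeR), and leaving out replicate 1 ended all but those of Nmt1 and Abi3 (0.0675 to 0.272 for the others). Leaving out 1 monocyte-derived library also ended the calls of Msrb1 (0.052 without replicate 2), Ndst1 (0.0559 without replicate 3, 0.106 without 4), Csnk1e (0.058 without 3, 0.0591 without 4), Vsir (0.0585 without 2, 0.0828 without 4) and Abi3 (0.068, 0.0816 and 0.0549 without 2, 3 and 4).

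The border macrophage genes that were called were lower in monocyte-derived cells. Cd163 encodes the receptor that takes up haemoglobin-haptoglobin complexes. It had 209, 223, 183 and 260 CPM against 685 and 262 (log2 difference -1.24 ± 0.26, adjusted p = 0.0418, edgeR). The shallow HSC-derived library lay just above the highest monocyte-derived one, and the other was far above. Without HSC-derived replicate 1 the log2 difference was -0.17 (adjusted p = 0.807), and without replicate 2 it was -1.66 (0.000143). The call was also lost without monocyte-derived replicate 1, 2 or 3 (adjusted p = 0.0798, 0.129 and 0.13). Folr2 encodes a folate receptor of tissue-resident macrophages. It had 275, 347, 419 and 450 CPM against 656 and 662, with a log2 difference of -0.82 ± 0.19 (adjusted p = 0.0437, edgeR). Both HSC-derived libraries had nearly the same level and lay above all 4 others, yet the call was lost without any 1 of the libraries other than monocyte-derived replicate 4 (adjusted p = 0.0622 to 0.191). Cd209g, a C-type lectin gene of the DC-SIGN family, had 68.9, 70.3, 66.3 and 69.3 CPM against 175 and 116 (log2 difference -1.19 ± 0.22, adjusted p = 0.0103). The monocyte-derived libraries were nearly equal, and the call was lost without HSC-derived replicate 1 (adjusted p = 0.402).

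Of 38 border macrophage markers, 37 were tested, with these 3 called lower and 0 higher, against 0.142% and 0.16% of all genes. At an unadjusted p under 0.05, 17 were lower and 1 higher, against 4.38% and 6.56% of all genes. In 13 members every monocyte-derived library was lower, against 9.52% of all genes, and in 3 every one was higher, against 17.2%. The list's median log2 difference was -0.48. Pf4, a chemokine gene that marks border macrophages, had 1752, 2061, 2143 and 1872 against 3791 and 3066 CPM and did not pass (log2 difference -0.81, adjusted p = 0.0822, edgeR). Mrc1, the mannose receptor gene, had 1179, 1132, 1210 and 1245 against 2195 and 1386 (-0.60, adjusted p = 0.17). Maf, a transcription factor gene of resident macrophages, had 166, 148, 130 and 159 against 237 and 239 CPM (-0.66, 0.168). Lyve1 had 226, 234, 226 and 327 against 515 and 200.3 CPM (-0.64, 0.402), so that the HSC-derived libraries lay on both sides. Ms4a7 overlapped too (-0.28, 0.692). An alternative without the 3 libraries of the series under 400000 counts was added after seeing the data. There the log2 differences were -0.88 for Mrc1, -0.96 for Pf4, -1.02 for Lyve1 and -0.16 for Ms4a7. That fit leaves 1 HSC-derived leptomeningeal library, which is assumed to vary like the other groups.

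**Figure D3:**
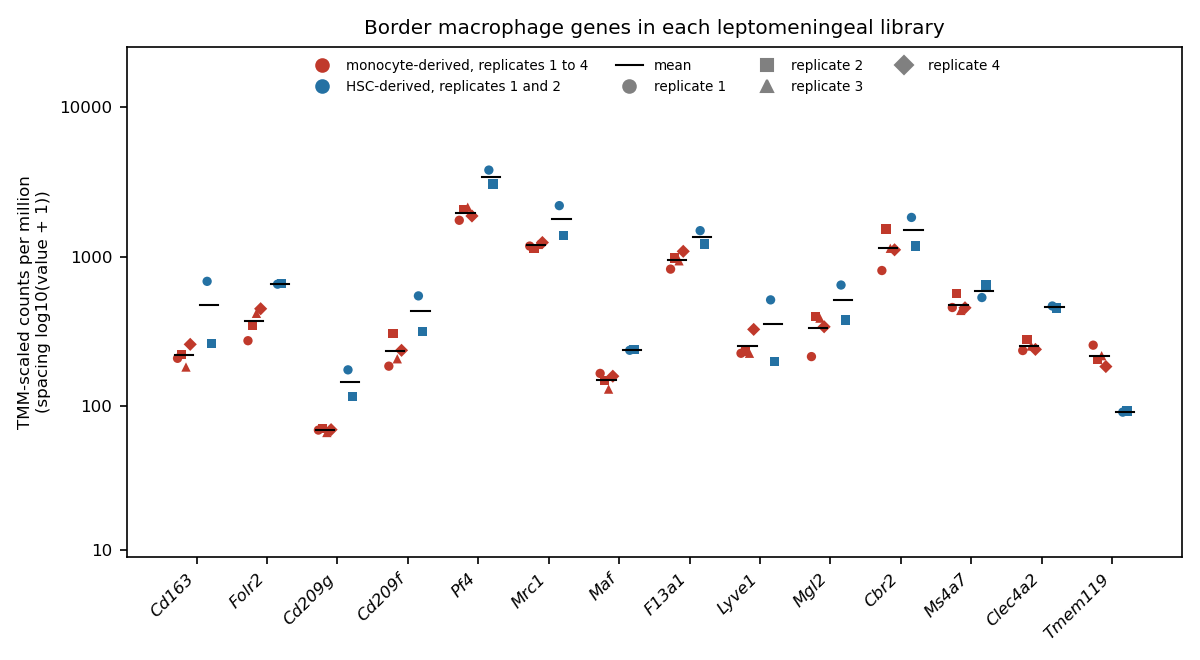
Levels in CPM (vertical axis, spaced as log10(value + 1)) of 13 border macrophage and related genes and of Tmem119 in each leptomeningeal library, with monocyte-derived libraries in red, HSC-derived libraries in blue, a marker shape per replicate and a black line at the mean. Both HSC-derived libraries lie above all monocyte-derived ones for Folr2, Cd209g, Pf4 and Clec4a2, whereas for Lyve1 they lie on both sides.

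Other lectin, scavenger and cytokine genes were examined with them. Clec4a2, which encodes the inhibitory lectin receptor DCIR, had 236, 279, 253 and 240 CPM against 469 and 454 (log2 difference -0.88 ± 0.18, adjusted p = 0.0241, edgeR). Its call was lost without monocyte-derived replicate 3 or 4 (adjusted p = 0.0535 and 0.0591) and without HSC-derived replicate 1 or 2 (0.143 and 0.0745). Of 26 tested C-type lectin genes, Clec4a2 and Cd209g were called lower and 0 higher, against 0.142% and 0.16% of all genes. Unadjusted p was under 0.05 for 9 lower and 2 higher members, against 4.38% and 6.56% of all genes. Cd209f, next to the threshold, had 185, 307, 208 and 237 against 548 and 316 CPM (-0.97, adjusted p = 0.0577). Clec4e, the Mincle receptor gene induced in inflammatory cells, had 30.2, 40.6, 32.5 and 35.7 CPM against 12 and 0 (adjusted p = 0.138). Of 21 tested iron and haem genes, Cd163 was called lower and 0 higher, against 0.142% and 0.16% of all genes. Here 7 were lower and 2 higher at an unadjusted p under 0.05, against 4.38% and 6.56% of all genes. The haem breakdown gene Blvrb had 352, 500, 418 and 411 against 541 and 709 CPM (-0.55, adjusted p = 0.228). The list also holds Lcn2, named above.

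Tslp encodes thymic stromal lymphopoietin, an epithelial and stromal cytokine that acts on dendritic and T cells. It had 24.6, 35.1, 38.3 and 33.0 CPM against 110 and 84.7, with no overlap (log2 difference -1.65 ± 0.29, a 3.13-fold difference, adjusted p = 0.00361, edgeR). In microglia its means were 12.6 CPM in monocyte-derived and 14.3 in HSC-derived cells. Its call was lost without HSC-derived replicate 1 (adjusted p = 0.225). Pltp, which encodes phospholipid transfer protein, had 406, 392.04, 560 and 404 CPM against 1232 and 662 (-1.15 ± 0.24, adjusted p = 0.0264), and without HSC-derived replicate 1 the difference was -0.49 (0.4). The call was also lost without monocyte-derived replicate 1, 2 or 4 (adjusted p = 0.0761, 0.129 and 0.0828). Exons of Pltp overlap those of Ctsa on the opposite strand, and strand use in counting is not known. Pltp stood on the endothelial list, of which Egfl7, the next by p, had 24.6, 34.0, 31.9 and 22.9 against 48.1 and 84.7 CPM. The defining endothelial gene Cldn5 had at most 1.35 CPM in any of the 6 libraries.

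The lower gene with the smallest adjusted p was Mgp, which encodes matrix Gla protein, an inhibitor of calcification made by fibroblasts and mural cells. It had 14.8, 12.1, 10.2 and 6.06 CPM against 101 and 61.6, with 57 counts against 67. The log2 difference was -3.02 ± 0.42, an 8.09-fold difference (adjusted p = 0.000223, edgeR). Igfbp5, an insulin-like growth factor binding protein gene of the same cells, had 8.43, 5.49, 3.19 and 2.02 CPM against 41.2 and 38.5 (-3.07 ± 0.67, 0.0264). For both genes the HSC-derived libraries were far above the rest. The call of Mgp was lost without HSC-derived replicate 1 (log2 difference -2.42, adjusted p = 0.125) and that of Igfbp5 without any 1 library other than monocyte-derived replicate 1 (0.0585 to 0.173). In microglia of both origins Mgp had means under 1 CPM (0.663 and 0.344).

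Of 28 fibroblast and mural genes, 18 were in the table and 15 tested, with a median of -0.63. Among the tested members Mgp and Igfbp5 were called lower and 0 higher, against 0.142% and 0.16% of all genes. At an unadjusted p under 0.05, 3 were lower and 0 higher, against 4.38% and 6.56% of all genes. Among the tested members 6 had every monocyte-derived library lower, and 1 had every one higher, against 9.52% and 17.2% of all genes. The list summed to 2826, 3315, 3573 and 2327 CPM in monocyte-derived and to 3671 and 9959 in HSC-derived libraries, with no member at 0 in both HSC-derived ones. Most of the sum was Ptgds, the prostaglandin D synthase gene of arachnoid cells, with 2430, 2931, 3193 and 2014 against 3162 and 9112 CPM. The collagen gene Col1a2 had 15.5, 9.88, 13.4 and 8.08 against 10.3 and 38.5 CPM and Dcn, which encodes the fibroblast proteoglycan decorin, 16.2, 14.3, 24.2 and 15.5 against 10.3 and 30.8. Both of these defining fibroblast genes overlapped between the groups. The part of stromal RNA in the sort was not tested.

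**Figure D4:**
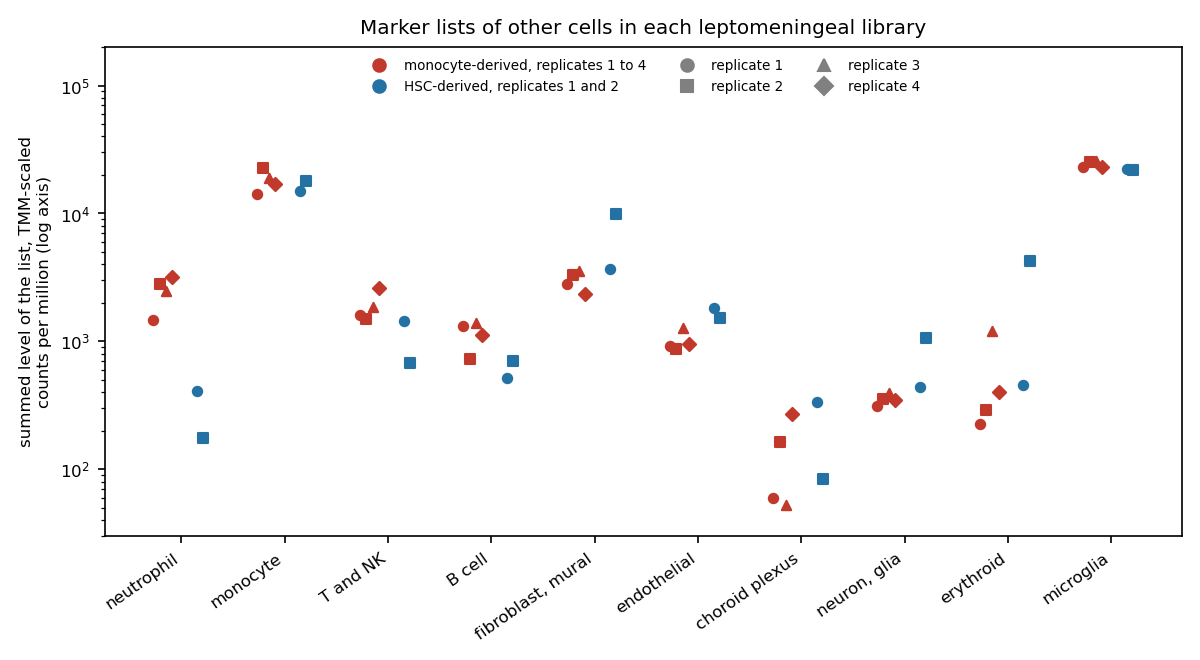
Summed level in CPM (vertical axis, log scale) of 10 marker lists in each leptomeningeal library, with monocyte-derived libraries in red, HSC-derived libraries in blue and a marker shape per replicate. The neutrophil sums of monocyte-derived libraries, 1477 to 3216, all lie above those of HSC-derived libraries, 177 and 409, and the shallow HSC-derived library (blue square) has the highest fibroblast, neuron and erythroid sums.

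Markers of further cell types were summed in the same way. Erythroid genes summed to 225, 293, 1203 and 404 CPM against 455 and 4282, and neuron and glia genes to 315 to 394 against 440 and 1071, so that the shallow library was highest for both. T and NK cell genes summed to 1497 to 2599 against 1441 and 678 CPM. Every monocyte-derived library was above both HSC-derived ones in this sum and in 7 of 23 tested members, against 17.2% of all genes. Of 23 tested members 0 were called in either direction by edgeR or DESeq2. Unadjusted p was under 0.05 for 5 higher and 0 lower members, against 6.56% and 4.38% of all genes. Gzma, the granzyme A gene of cytotoxic cells, had 24.6, 41.7, 21.7 and 35.7 against 8.59 and 0 CPM (adjusted p = 0.192, edgeR). Igkc, an antibody light chain gene of B and plasma cells, had 401, 80.2, 545 and 529 against 15.5 and 0 CPM (adjusted p = 0.078). The mast cell genes Cma1, Cpa3 and Mcpt4 had no count in monocyte-derived replicate 1 or in either HSC-derived library, and reached 45.3, 14.8 and 24.2 CPM in the other 3.

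The remaining lower genes included ribosomal and respiratory chain genes. Rpl39, a ribosomal protein gene on the X chromosome, had 995, 593, 785 and 682 CPM against 1424 and 1779 (log2 difference -1.06 ± 0.24, adjusted p = 0.0389, edgeR). Of 84 tested ribosomal protein genes it alone was called, against 0.302% of all genes. At an unadjusted p under 0.05, 19 were lower and 0 higher, against 4.38% and 6.56% of all genes, and the median was -0.42. mt-Cytb, the mitochondrial cytochrome b gene, had 4135, 3281, 3682 and 3033 against 5356 and 8788 CPM (-1.0 ± 0.23, 0.0389). Ndufc1, a nuclear gene of respiratory complex I, had 40.5 ± 3.55 CPM (SD, n = 4) against 88.7 ± 5.68 (n = 2, -1.17 ± 0.27, 0.0389). Without HSC-derived replicate 2, the library with the highest ribosomal and mitochondrial shares, all 3 calls were lost (adjusted p = 0.408, 0.679 and 0.0908). The log2 difference was then -0.91 for Rpl39, -0.61 for mt-Cytb and -1.21 for Ndufc1. The part of RNA content in these differences was not tested. Leaving out monocyte-derived replicate 2, 3 or 4 also ended them (0.0597 to 0.153), as leaving out HSC-derived replicate 1 did for Rpl39 and Ndufc1 (0.0721 and 0.32).

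Among the lower genes, 3 were pseudogenes and 1 a non-coding RNA. Gm13835 had 8.43, 4.39, 13.4 and 12.8 CPM against 84.2 and 61.6 (-2.91 ± 0.45, adjusted p = 0.00183, edgeR) and Gm10039 3.51, 6.59, 1.28 and 2.69 against 29.2 and 23.1 (0.0334). Both are processed pseudogenes, whose reads can be shared with a parent gene. Ubb-ps, a ubiquitin pseudogene, had 0, 1.10, 0 and 1.35 CPM against 8.59 and 347, which is 3 counts against 50, and was not called without HSC-derived replicate 2 (adjusted p = 0.632), where the fitted log2 difference was -3.72. F630028O10Rik, annotated as antisense on the X chromosome, shares exon sequence with the microRNA gene Mir223 on the same strand, whose product is a regulator of granulocytes. It had 26.0, 42.8, 45.9 and 43.7 CPM against 119 and 53.9 (-1.35 ± 0.29, adjusted p = 0.0248), and -0.35 (0.765) without HSC-derived replicate 1. Without that library the calls of Gm13835 and Gm10039 were lost too (0.167 and 0.277). Those of Gm10039 and Ubb-ps were also lost without monocyte-derived replicate 3 or 4 (0.0576 to 0.0958), that of Ubb-ps also without replicate 2 (0.0613), and that of Gm10039 also without HSC-derived replicate 2 (0.0719).

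Signalling and stress genes gave no call. Of 37 tested transcription factor genes of the macrophage lineage 0 were called by edgeR, and DESeq2 called 1 higher and 1 lower. Their median was 0.29, and 8 were higher and 1 lower at an unadjusted p under 0.05, against 6.56% and 4.38% of all genes. Irf8, needed for monocyte and microglia development, had 502, 473, 496 and 454 against 316 and 254 CPM (log2 difference 0.72, adjusted p = 0.141). Of 25 immediate early genes 0 were called by edgeR and 1 by DESeq2. Here 7 were higher and 0 lower at an unadjusted p under 0.05, against the same shares of all genes. Jun had 1891, 2133, 1497 and 1395 against 1092 and 555 CPM (1.03, 0.128), the shallow library being the lowest. Of 22 tested chemokine ligand genes 0 were called by edgeR, and DESeq2 called 1 higher and 2 lower. Ccl8, made by resident macrophages, had 632, 445, 754 and 623 against 1417 and 2796 CPM (-1.75, adjusted p = 0.141, edgeR) and Ccl3, an inflammatory chemokine gene, 671, 685, 636 and 657 against 407 and 285 (0.89, 0.104). Apoe, the apolipoprotein E gene, overlapped between the groups (log2 difference -0.11, adjusted p = 0.934).

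The interaction of origin with compartment asked whether the difference between origins was another in leptomeningeal macrophages than in microglia. It called 6 genes, 0.0566% of those tested, all with a more positive difference in the leptomeninges. Of these, 3 encode MHC class II chains, which present peptides to CD4 T cells. H2-Eb1 had 536 to 930 CPM in monocyte-derived and 2043 to 2890 in HSC-derived microglia, without overlap. In leptomeningeal macrophages it had 7760, 11220, 11633 and 10264 against 7960 and 8442 CPM, with overlap. The log2 difference between origins was -1.61 in microglia and 0.32 in the leptomeninges, an interaction of 1.92 ± 0.32 (adjusted p = 0.0079, edgeR). H2-Aa went from -1.50 to 0.31 (interaction 1.81 ± 0.35, 0.0308) and H2-Ab1 from -1.48 to 0.12 (1.59 ± 0.32, 0.0367). Within the leptomeninges, 0 of 15 tested MHC class II genes were called by edgeR or DESeq2. Among them 0 were higher and 2 lower at an unadjusted p under 0.05, against 6.56% and 4.38% of all genes. Cd74, the invariant chain gene, had 13932, 9237, 13073 and 10042 against 15386 and 16976 CPM (log2 difference -0.48, adjusted p = 0.412), and its interaction did not pass (0.90, 0.387).

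Ccr2 had an interaction of 1.51 ± 0.27 (adjusted p = 0.0163, edgeR). Its microglial levels were 38.0 to 53.5 CPM in monocyte-derived and 86.1 to 118 in HSC-derived cells. In the leptomeninges the means were 499 ± 61.2 (SD, n = 4) and 382 ± 148 (n = 2), a difference that was not called. Without HSC-derived leptomeningeal replicate 2 the log2 difference there was 0.03 (adjusted p = 0.995), and without replicate 1 the interaction was 2.13 (0.00143). Lgals3, which encodes the lectin galectin-3, had 297, 403, 391 and 406 against 319 and 139 CPM in the leptomeninges, and 35.2 to 66.6 against 74.4 to 164 in microglia (1.67 ± 0.33, 0.0367). Its interaction was 2.63 without HSC-derived leptomeningeal replicate 1 and 1.33 without replicate 2, and its leptomeningeal difference, 0.55 with both, was 1.52 (adjusted p = 0.0485) and 0.22 (0.917). Gngt2, a G protein subunit gene, had 237, 378, 296 and 297 against 148 and 162 CPM, and 192 to 263 against 251 to 427 in microglia (1.53 ± 0.30, 0.0311). It shares exon sequence with Abi3, as given above. Without HSC-derived leptomeningeal replicate 2 none of the 6 was called (adjusted p = 0.17 to 0.277, edgeR), and 846 genes had an unadjusted p under 0.05 with all libraries (7.98%). Without the 3 libraries under 400000 counts, of which 2 are HSC-derived microglia, H2-Eb1 and Ccr2 were called (0.027 for both) and H2-Aa, H2-Ab1, Lgals3 and Gngt2 were not (0.0646 to 0.275). The call of H2-Eb1 held without any 1 other leptomeningeal library. Without monocyte-derived replicate 2 or 3 those of H2-Aa, H2-Ab1, Lgals3 and Gngt2 were lost (0.0708 to 0.127), without replicate 3 that of Ccr2 (0.0654), and without replicate 4 those of H2-Ab1, Lgals3 and Gngt2 (0.0658 to 0.0862). Without HSC-derived replicate 1 those of H2-Aa, H2-Ab1 and Gngt2 were lost (0.0509 to 0.0936).

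**Figure D5:**
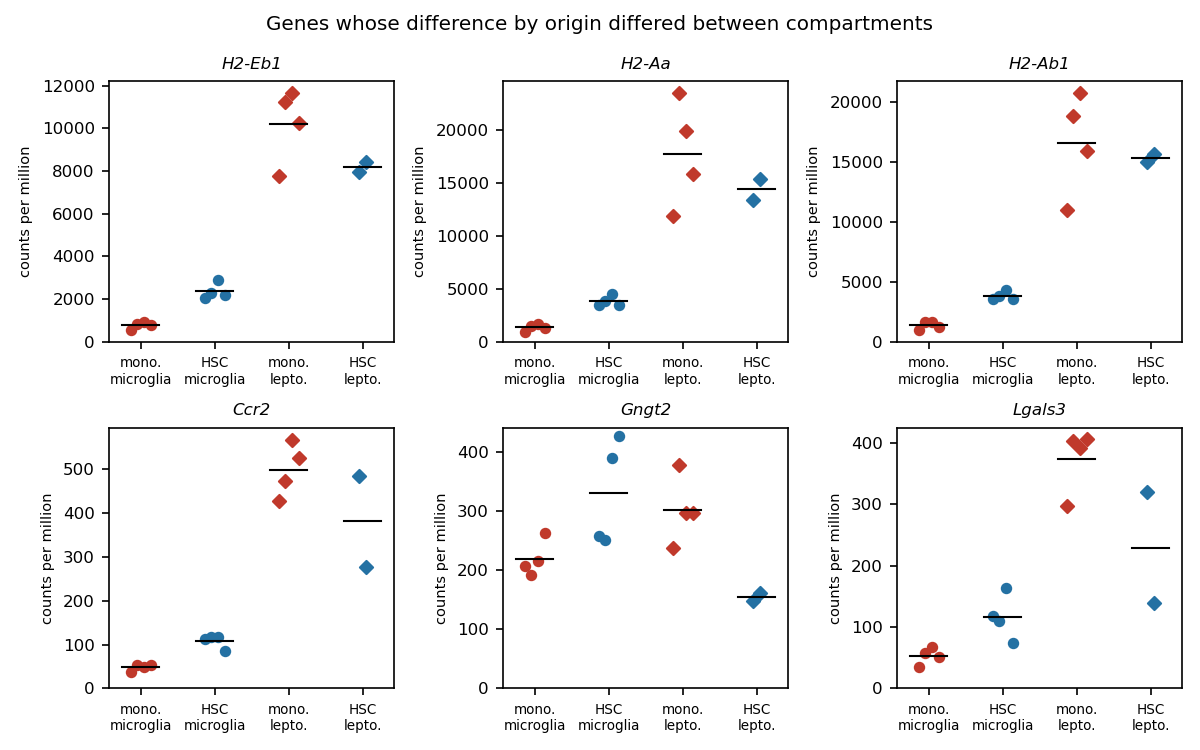
Levels in CPM (vertical axes, from 0) of the 6 genes called in the interaction, in monocyte-derived (red) and HSC-derived (blue) microglia (circles) and leptomeningeal macrophages (diamonds), each point a library and each black line a mean. H2-Eb1, H2-Aa, H2-Ab1 and Ccr2 are higher in every HSC-derived than in every monocyte-derived microglia library, and overlap between both leptomeningeal groups.

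Among the 32 genes called between the leptomeningeal groups, the lowest adjusted p of the interaction was 0.0941, for Msrb1 (edgeR). Their differences were therefore not shown to differ from those in microglia. For Camp, Ltf and Ace the test could not decide, because HSC-derived libraries of both compartments had no counts (interaction SE 18785, 26937 and 4567). For Ngp, near 0 in microglia, the SE was 7.03. In microglia Ly6c2 had a log2 difference between origins of 1.06 (adjusted p = 0.195), Cd163 one of -1.25 (0.0849) and Folr2 one of -0.63 (0.34). Rpl39 was called there as well (-0.94, adjusted p = 0.0112). The granule genes were near 0 in microglia, with mean levels of Camp, Ngp and Ltf of at most 1.47, 1.28 and 0.175 CPM in either donor-derived group. Tmem119 had a difference of 0.23 there (adjusted p = 0.546) and Mgp one of 0.36 (0.942).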

How the data were processed

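Transcripts were counted by MARS-seq, a 3′ method in which unique molecular identifiers mark each captured RNA. The authors deposited raw counts per gene for each library, with the build mm10 named in the submitters' processing notes. For the aligner, the counting program and strand use, the sources used here give nothing. The deposited table has 2 columns of counts that match no sample, which were not used.

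Differences were tested in R 4.3.3 with edgeR 4.0.16 (TMM, filterByExpr, robust quasi-likelihood F test, Benjamini-Hochberg over 10597 of 13043 genes, threshold 0.05). All 18 libraries in 5 groups entered the fit, host microglia included, so that the spread is shared. The SE of a log2 difference was derived from the F statistic. A gene without counts in a group was set at 3 counts over that group. With 1 to 3 counts, the ratio of counts has an exact 95% interval (Clopper-Pearson). Floors and intervals cover counting error only.

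Depth ran from 154727 to 1809700 counts in the 6 leptomeningeal libraries. The groups came from the library titles, and the labels name no batch. The 35 gene lists, the markers and the genes named were chosen with earlier results of these data known. Named genes were up to 12 higher and up to 12 lower called genes by size (12 and 10 qualified) whose groups did not overlap and whose higher mean reached 50 CPM, without predicted genes and pseudogenes, up to 4 called members of each list, 13 fixed genes, and up to 5 interaction genes in each direction. Other genes, including those set beside a list's called members and the called pseudogenes, were picked after their values were seen. Lists not described in the text had 0 called members, apart from Pltp among lipid genes. Alternatives were other scalings, filters, limma 3.58.1 (voom) and DESeq2 1.42.0 fits, fewer libraries, thinned counts and a replicate block. Scripts were tested on simulated data. Positions came from GENCODE and promoters from RefSeq.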

Additional observations from a re-analysis of the deposited data

Results flagged for a closer look

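In 49 groups of 4 libraries examined for a library far from the others, 8 had a gap to the nearest library that exceeded Dixon's critical share of the group's whole range, and chance gives about 1 in 20. In monocyte-derived leptomeningeal macrophages the highest library stood apart for Nmt1 (gap over range 0.841), Msrb1 (0.85), Pltp (0.916), Lyve1 (0.924) and Ms4a7 (0.844), and the lowest for Csnk1e (0.984) and Lgals3 (0.869). In HSC-derived microglia the lowest library stood apart for Ccr2 (0.849). The difference between origins differed between the leptomeninges and microglia, by the interaction test, for Ccr2 (log2 1.51), Gngt2 (1.53), H2-Aa (1.81), H2-Ab1 (1.59), H2-Eb1 (1.92) and Lgals3 (1.67).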

How the results depend on the processing

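The counts of called genes moved with the test and the libraries. Of 17 higher, 15 lower and 6 interaction calls, DESeq2 gave 38, 34 and 49, and limma voom gave 3 higher. DESeq2 gave an adjusted p for 19 of the 32 genes and called all 19. A fit of the 6 leptomeningeal libraries alone gave 7 higher and 9 lower, thinning to the shallowest library gave 6 higher and 2 interaction calls, and scaling by total counts gave 1 interaction call. Without the 3 libraries under 400000 counts, an alternative added after seeing the data, 29 were higher and 43 lower. Leaving out 1 leptomeningeal library in turn gave 4 to 58 higher, 6 to 34 lower and 0 to 40 interaction calls. Of the 32 genes, 4 remained called without HSC-derived replicate 1, where 90 were called and the median log2 difference of all genes was 0.46, and 11 remained without replicate 2, where 12 were called. Without monocyte-derived replicate 1, 29 remained among 64 called. Whether libraries of the same replicate number belong together could not be decided. Deviations from the mean of 2 HSC-derived libraries mirror each other, and they correlated with those of monocyte-derived libraries between -0.05 and 0.05. A replicate block gave 24 higher, 19 lower and 4 interaction calls, with 26 of the 32 kept. Of the 32, RLE scaling kept all, TMMwsp scaling 27, no low-count filter 29, total counts 24 and limma voom 11, the 6 leptomeningeal libraries alone kept 11 of 31 tested there, and thinning 7 of 24. Directions reversed for Lyve1 without HSC-derived replicate 1 (log2 0.44, the range without 1 library being -1.03 to 0.44), for Apoe without monocyte-derived replicate 1 (0.028, the range being -0.20 to 0.028), without HSC-derived replicate 2 (0.00081) and without the 3 shallow libraries (0.0064), and for H2-Ab1 in the leptomeninges with the replicate block (-0.016). The cause was not tested. In HSC-derived replicate 2, a gene under 23.1 CPM has fewer than 3 counts.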
